A study of Arabidopsis thaliana and Solanum lycopersicum with 40 samples.

Results

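Tomato auxin-related genes were taken as the genes of the deposited tomato expression table whose description contains auxin, SAUR, Aux/IAA, indole-3-acetic acid or PIN-formed, in any case. The rule found 227 of the 34075 tomato genes in the table. The wording of each description placed them in families: 111 SAUR genes, 30 GH3 genes, 25 auxin response factors (ARF), 20 Aux/IAA genes, 13 efflux carriers, 6 auxin canalization proteins with a DUF828 domain, 4 auxin F-box proteins, 4 auxin-repressed or dormancy/auxin associated proteins, 3 influx carriers, 1 auxin-binding protein and 10 other genes. The measurements were made in roots of wild-type tomato, Solanum lycopersicum cultivar M82, by RNA sequencing. Seedlings had grown in white light for 7 days; they were then moved to shade, or stayed unshaded, for 3, 6, 12 or 24 h. Each of the 8 groups of light and time held 2 libraries, 16 in all, and the labels do not say that the libraries of a group came from separate cultures, so p-values measure the spread between these samples, which may be technical.

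Auxin is a growth hormone that sets root elongation, root hair growth, bending and the start of lateral roots. From work in Arabidopsis, auxin joins F-box receptors of the TIR1/AFB family to Aux/IAA repressors, which are then degraded, and this frees ARF transcription factors to act on their target genes. Many Aux/IAA, SAUR and GH3 genes are themselves auxin-responsive targets: Aux/IAA proteins feed back as repressors, GH3 enzymes join auxin to amino acids, and many SAUR proteins promote cell expansion. Efflux carriers (PIN and PIN-like proteins) and influx carriers (AUX1/LAX) move the hormone between and within cells. Auxin-repressed or dormancy-associated genes, named for their fall after auxin treatment or their level in dormant buds, are often high in tissues that grow little.

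Levels are FPKM, fragment counts scaled by transcript length and library size. Differences are log2(FPKM + 1) in shaded minus unshaded roots, tested with limma across all 20413 genes with a mean of at least 1 FPKM, and a gene was called at a Benjamini-Hochberg adjusted p under 0.05. Of the 227 auxin-related genes, 127 reached that mean and were tested. Of the 100 others, 40 were listed at 0 in all libraries and 60 were above 0 in at least 1. The group mean of these 100 genes was at most 2.43 FPKM, in the SAUR gene Solyc01g110890.1 at 3 h, with 2.15 and 2.71 FPKM in shaded roots and 0 FPKM listed in both unshaded libraries. Most of the untested genes were SAUR genes (65) and GH3 genes (24). The median of the tested members' mean levels was 12.6 FPKM, against 15.4 FPKM for all tested genes.

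The root label was checked against marker descriptions. All 6 SCARECROW and scarecrow-like genes and all 7 Casparian strip membrane genes were above 0, and 6 of the 7 averaged at least 1 FPKM. The SCARECROW and scarecrow-like genes summed to 96.6 and 104.5 FPKM in shaded roots at 12 h, against 80.3 and 84.1 FPKM in unshaded roots, and to 85.5 and 80.8 FPKM in shaded roots at 3 h, against 73.6 and 78.3 FPKM in unshaded roots. The Casparian strip genes, markers of the endodermis, summed to 209 to 364 FPKM in shaded libraries and 158 to 320 FPKM in unshaded libraries; at 3 h the sums were 340 and 287 FPKM in shaded roots, against 213 and 200 FPKM in unshaded roots, and at 6 h they were 358 and 364 FPKM in shaded roots, against 231 and 158 FPKM in unshaded roots. The shoot list of 38 chlorophyll-binding and Rubisco small subunit genes, 2 of them at 0 throughout, summed to 575 to 2123 FPKM in shaded libraries and 961 to 2317 FPKM in unshaded libraries. At 24 h these sums were 575 and 671 FPKM in shaded roots, against 961 and 1175 FPKM in unshaded roots; at 12 h they were 875 and 661 FPKM in shaded roots, against 2123 and 1173 FPKM in unshaded roots. The part of these marker differences in the results at those times was not tested. The 2 lights overlapped at the other times. These were 6 and 24 h for the SCARECROW list, 12 and 24 h for the Casparian strip list, and 3 and 6 h for the shoot list. Of all tested genes, 43.5%, 45.4%, 60.8% and 72.7% did not overlap at 3, 6, 12 and 24 h. In whole roots, fewer cells of a type and less RNA per cell cannot be told apart. The 2 libraries of a group differed by a median of 0.156 to 0.352 on the log2 scale over the tested members, most in unshaded 12 h roots (0.352), unshaded 6 h roots (0.334) and shaded 24 h roots (0.323).

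Auxin-related genes were called in both directions as shade went on. At 3 h none of the 127 tested members was called with limma, against 0.186% of all tested genes (0.113% higher and 0.0735% lower), and 14 had an unadjusted p under 0.05. At 6 h 6 members (4.72%) were called, all higher in shaded roots, against 1.64% of all tested genes, 1.14% higher and 0.495% lower. At 12 h 18 members rose and 14 fell (25.2% called), against 23.9% of all tested genes, 10.6% higher and 13.3% lower. At 24 h 20 members rose and 21 fell (32.3%), against 37.3% of all tested genes, 15.9% higher and 21.4% lower. The shares at 12 and 24 h were thus close to or under those of all genes.

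The median shade effect stayed near 0 throughout. It was -0.03, 0.10, -0.03 and -0.07 at 3, 6, 12 and 24 h over the members, and 0.03, -0.003, -0.02 and -0.03 over all tested genes. Averaged over the 4 time points, 25 members rose and 23 fell (37.8%), against 39.2% of all tested genes, 18.2% higher and 20.9% lower. All 6 genes called at 6 h were also called, in the same direction, at 12 and at 24 h. Of the genes called at 12 h, 21 were called in the same direction at 24 h (12 higher and 9 lower), which is 65.6% of the 12 h calls and 51.2% of the 24 h calls, and 0 were called in opposite directions. Libraries of the 2 lights did not overlap for 68, 65, 84 and 85 of the 127 members at 3, 6, 12 and 24 h, against 43.5%, 45.4%, 60.8% and 72.7% of all tested genes. The comparison at one time point rested on 2 libraries a light: 0 of the 6 calls at 6 h, 9 of 32 at 12 h and 16 of 41 at 24 h held with every library left out in turn, against 38 of 48 for the average over time points. A call that did so is said here to have held. When only the 4 libraries of a time point were fitted, 0, 14 and 21 members were called at 6, 12 and 24 h, with 27 members at an unadjusted p under 0.05 at 6 h. Of the calls that held, 6 ended in these smaller fits: at 12 h Solyc02g077880.3 (adjusted p = 0.0904), Solyc03g006360.3 (0.0572) and ARF5 (0.0907), and at 24 h AUXIN RESPONSE 4 (0.0677), RNA63 (0.0647) and RNA64 (0.0615).

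**Figure D1:**
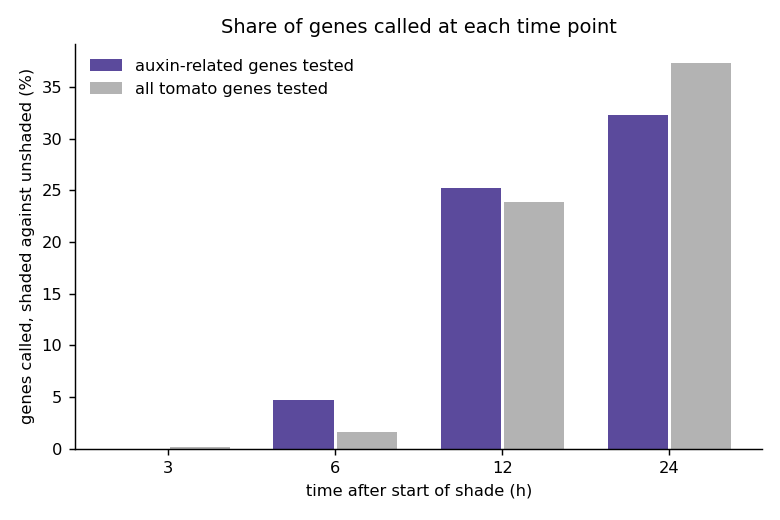
Percent of tested genes called in shaded against unshaded tomato roots (y axis) at 3, 6, 12 and 24 h (x axis), for the 127 auxin-related genes (left bars) and all 20413 tested genes (right bars). The bars of the auxin-related genes stand at 0%, 4.72%, 25.2% and 32.3%, and those of all genes at 0.186%, 1.64%, 23.9% and 37.3%.

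**Figure D2:**
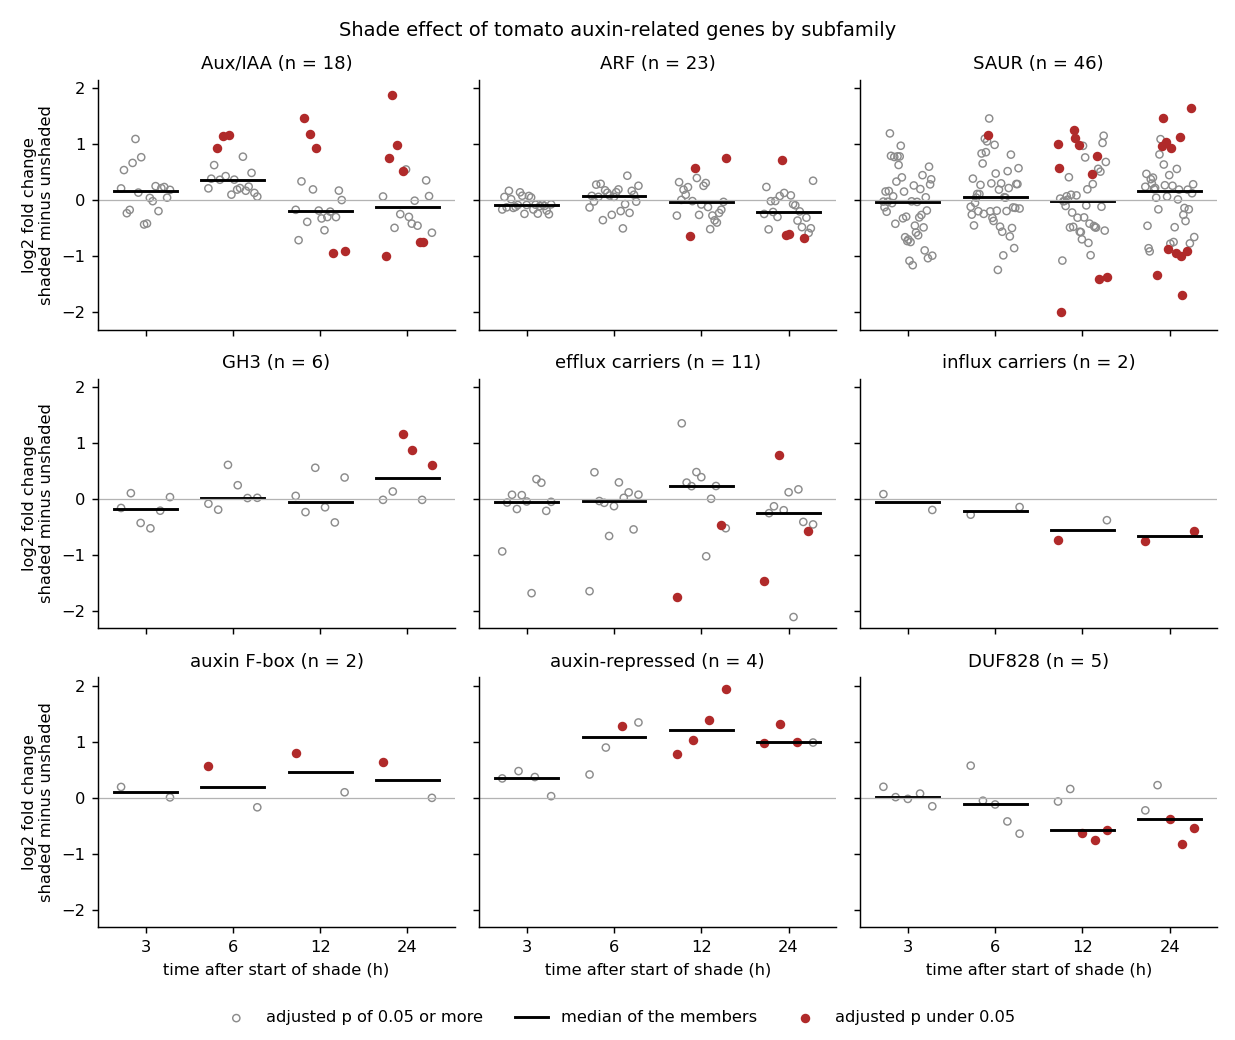
Log2 fold change of shaded minus unshaded roots (y axis) for each tested member of 9 families at 3, 6, 12 and 24 h (x axis); filled points have a limma adjusted p under 0.05, open points do not, and the line is the family's median. The 4 auxin-repressed genes lie above 0 at every time. Called Aux/IAA and SAUR genes lie on both sides of 0 at 12 and 24 h. SAUR differences spread to both sides at every time, from -1.16 to 1.20 at 3 h and from -1.25 to 1.46 at 6 h.

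Among receptors, 1 gene rose from 6 h on. The tested genes were 2 auxin F-box, 1 auxin-binding and 4 transport inhibitor response genes. Of all tested genes, 1.14%, 10.6% and 15.9% were called higher at 6, 12 and 24 h. AUXIN SIGNALING F-BOX 3 (Solyc02g079190.3), named for an Arabidopsis auxin co-receptor of the TIR1/AFB family, had 106 and 97.8 FPKM in shaded roots at 6 h, against 65.8 and 70.8 FPKM in unshaded roots. At 12 h it had 129 and 126 FPKM in shaded roots, against 78.2 and 67.1 FPKM in unshaded roots. At 24 h it had 97.7 and 100 FPKM in shaded roots, against 61.4 and 65.4 FPKM in unshaded roots. At these 3 time points every shaded library was above every unshaded one, and at 3 h too (61.7 and 73.3 FPKM in shaded roots, against 58.1 and 59.1 FPKM in unshaded roots). The log2 difference was 0.20, 0.57, 0.81 and 0.64 in order of time (SE 0.11 each), with limma adjusted p = 0.599, 0.0279, 0.000932 and 0.00195. The calls at 12 and 24 h held, and the call at 6 h ended without any one of the 4 libraries of that time (adjusted p = 0.0612 to 0.266). Auxin signaling F-box 1 (Solyc06g007840.2), the other tested member of its family, differed by 0.10 ± 0.29 at 12 h and 0.00 ± 0.29 at 24 h (adjusted p = 0.836 and 1). ER auxin binding 1 (Solyc06g084390.3), related to an endoplasmic reticulum auxin-binding protein, was not called at any time, with differences of -0.21 to 0.09. The 4 tested genes described as transport inhibitor response, the TIR1 type, were not called at any time, and their differences at 24 h ranged from -0.22 to 0.33.

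Aux/IAA repressors split by gene. Of 18 tested genes, 3 rose at 6 h, 3 rose and 2 fell at 12 h, 4 rose and 3 fell at 24 h, and 5 rose and 2 fell in the average over time points. The shares called at 6, 12 and 24 h were 16.7%, 27.8% and 38.9%, against 1.64%, 23.9% and 37.3% of all tested genes. In the average over time points the share was 38.9%, against 39.2%. Their median difference was 0.16, 0.37, -0.19 and -0.13 at 3, 6, 12 and 24 h. At 6 h all 18 differences were above 0, with a lowest value of 0.07, while 3 were called. The median over all tested genes at 6 h was -0.003. The 18 values rest on the same 4 libraries and are not independent.

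IAA17 (Solyc06g008590.3) was higher in shaded roots at every time point. It had 18.004 and 26.3 FPKM in shaded roots at 3 h, against 8.78 and 10.6 FPKM in unshaded roots, and 22.6 and 19.6 FPKM in shaded roots at 24 h, against 10.2 and 9.97 FPKM in unshaded roots. At 6 h shaded roots had 18.99 and 20.9 FPKM and unshaded roots 6.91 and 10.2 FPKM; at 12 h shaded roots had 23.2 and 23.4 FPKM and unshaded roots 10.4 and 9.13 FPKM. All 8 shaded libraries were above all 8 unshaded libraries. The difference was 1.10, 1.15, 1.18 and 0.99 (SE 0.19 each) at 3, 6, 12 and 24 h, with limma adjusted p = 0.0623, 0.0193, 0.00243 and 0.00348, and the interaction of light and time was not called (adjusted p = 0.945). The average over time points was 1.10 ± 0.10 (SE, adjusted p = 3.39e-05).

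IAA4 (Solyc06g053840.3) had the smallest adjusted p of all members in the average over time points (0.85 ± 0.07, SE, limma adjusted p = 2.19e-05). At 6 h it had 217 and 190 FPKM in shaded roots, against 91.0 and 88.5 FPKM in unshaded roots, and at 12 h it had 201 and 246 FPKM in shaded roots, against 115 and 117 FPKM in unshaded roots. At 3 h it had 157 and 158 FPKM in shaded roots, against 81.8 and 103 FPKM in unshaded roots; at 24 h it had 167 and 140 FPKM in shaded roots, against 104 and 108 FPKM in unshaded roots. Its groups did not overlap at any time. The difference was 0.77, 1.17, 0.94 and 0.53 (SE 0.14 each), with adjusted p = 0.0684, 0.0064, 0.00146 and 0.0127 at 3, 6, 12 and 24 h.

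IAA26 (Solyc03g121060.4) showed no rise at 3 h and, on the log2(FPKM + 1) scale, the largest rise of all members at 24 h. It had 44.2 and 42.1 FPKM in shaded roots at 3 h, against 45.0 and 52.8 FPKM in unshaded roots. Shaded roots then had 54.0 and 59.0 FPKM at 6 h, 85.8 and 118 FPKM at 12 h, and 144 and 116 FPKM at 24 h. Unshaded roots had 24.9 and 33.7 FPKM at 6 h, 36.5 and 35.1 FPKM at 12 h, and 35.5 and 32.9 FPKM at 24 h. The 2 lights did not overlap at any time: shaded roots were below unshaded roots at 3 h and above them from 6 h on. The difference was -0.17, 0.94, 1.47 and 1.89 (SE 0.18 each) at 3, 6, 12 and 24 h, with limma adjusted p = 0.817, 0.0285, 0.000631 and 0.000497. The shade effect differed between time points (interaction of light and time, adjusted p = 0.0182).

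The calls of IAA17, IAA4 and IAA26 at 12 h held, as did those of IAA17 and IAA26 at 24 h. The 6 h calls ended without shaded replicate 1 of that time, with adjusted p = 0.149 for IAA17, 0.0999 for IAA4 and 0.191 for IAA26, and those of IAA17 and IAA26 also without shaded replicate 2 (0.121 and 0.16) or unshaded replicate 1 (0.0684 and 0.107). The 24 h call of IAA4 ended without shaded replicate 1, unshaded replicate 1 or unshaded replicate 2 (adjusted p = 0.112, 0.0685 and 0.0536). IAA15 and IAA13 rose too, and were picked for description after their values were seen. IAA15 (Solyc03g120390.3) had 18.8 and 17.04 FPKM in shaded roots at 24 h, against 11.3 and 9.30 FPKM in unshaded roots (0.75 ± 0.15, SE, limma adjusted p = 0.00414). IAA13 (Solyc09g090910.3) was called in the average over time points (0.31 ± 0.09, adjusted p = 0.0196), a call that ended without shaded 6 h replicate 1 (adjusted p = 0.0509).

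The falling Aux/IAA genes included the most abundant one. IAA14 (Solyc09g083290.3; the Arabidopsis gene of this name acts in lateral root initiation) averaged 281 FPKM over all libraries. It had 363 and 319 FPKM in shaded roots at 3 h, against 318 and 269 FPKM in unshaded roots, and 170 and 215 FPKM in shaded roots at 24 h, against 328 and 314 FPKM in unshaded roots. Shaded libraries were thus above the unshaded ones at 3 h and below them at 24 h. The difference was 0.22, 0.24, -0.30 and -0.75 (SE 0.15 each) at 3, 6, 12 and 24 h, called at 24 h (limma adjusted p = 0.00388), and it differed between time points (interaction adjusted p = 0.0401).

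IAA1 (Solyc09g083280.3), the neighbouring identifier, had 45.0 and 52.9 FPKM in shaded roots at 12 h, against 103 and 87.1 FPKM in unshaded roots. At 24 h it had 62.9 and 63.3 FPKM in shaded roots, against 101 and 111 FPKM in unshaded roots. The order was the other way round at 6 h, with 78.6 and 74.0 FPKM in shaded roots against 64.8 and 70.6 FPKM in unshaded roots. The difference was -0.94 ± 0.12 at 12 h and -0.74 ± 0.12 at 24 h (SE, limma adjusted p = 0.000822 and 0.00172), both calls held, and the interaction adjusted p was 0.0231. The 24 h call of IAA14 held too. IAA19 (Solyc03g120380.3) had 0.354 and 1.86 FPKM in shaded roots at 24 h, against 3.49 and 2.46 FPKM in unshaded roots (-1.002 ± 0.33, SE, adjusted p = 0.036), and this call ended without shaded replicate 1, unshaded replicate 1 or unshaded replicate 2 of that time (adjusted p = 0.314, 0.179 and 0.0701).

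**Figure D3:**
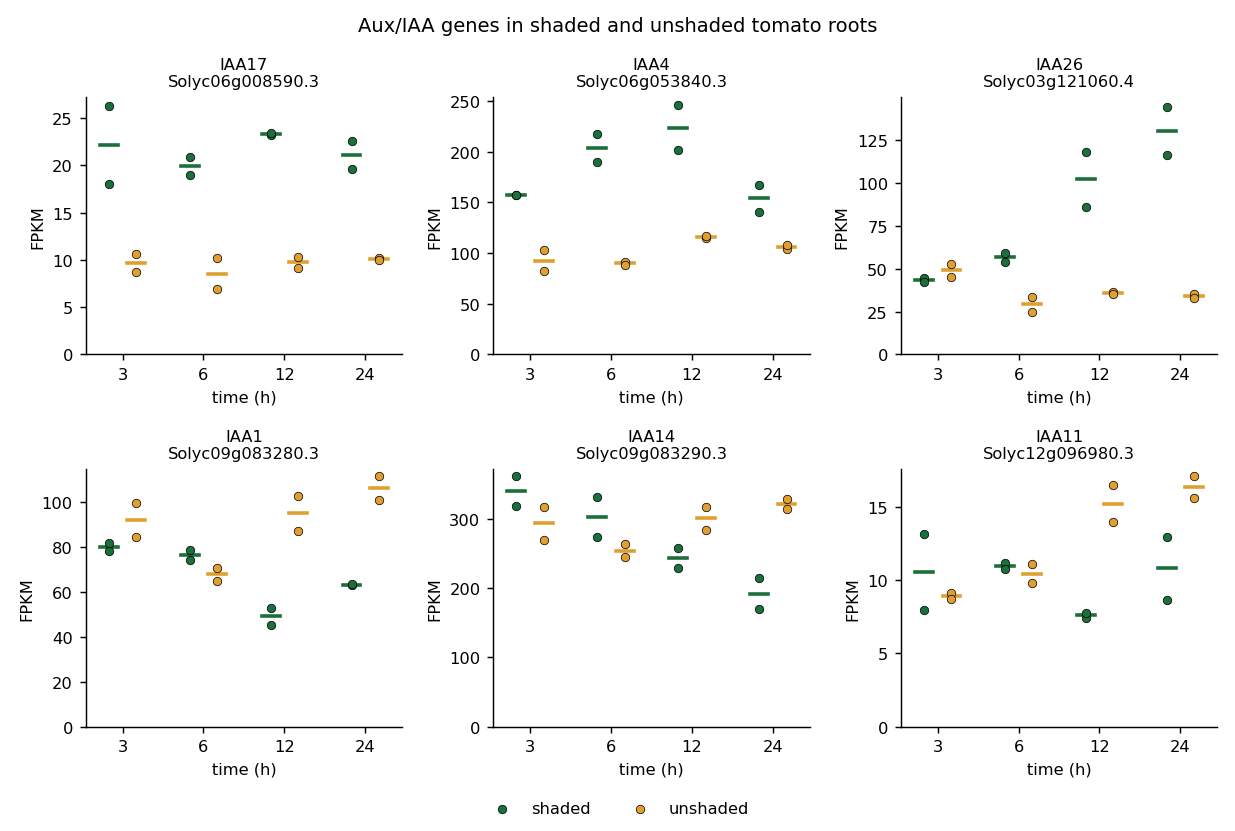
FPKM (y axis) of 6 Aux/IAA genes in each library at 3, 6, 12 and 24 h (x axis), shaded left and unshaded right at each time; points are libraries and bars the mean of 2. IAA17 and IAA4 are higher in shaded roots at all times, IAA26 from 6 h on, and IAA1, IAA14 and IAA11 are lower in shaded roots at 12 and 24 h. IAA14 was not called at 12 h, and IAA11 was not called at 24 h. IAA11 (Solyc12g096980.3, 7.38 and 7.76 FPKM in shaded and 16.4 and 14.0 FPKM in unshaded roots at 12 h) was added after its values were seen. Its 12 h call (limma adjusted p = 0.0122) ended without shaded replicate 1, shaded replicate 2 or unshaded replicate 1 of that time. Its call in the average over time points also ended with single libraries left out.

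Neighbouring Aux/IAA identifiers did not always move alike. IAA4 rose at 12 h, while the adjacent IAA7 (Solyc06g053830.3) had 42.7 and 39.8 FPKM in shaded roots against 46.8 and 27.5 FPKM in unshaded roots, overlapping ranges. IAA17 rose at 24 h, while the adjacent IAA22 (Solyc06g008580.3) had 5.10 and 2.87 FPKM in shaded roots against 6.84 and 4.97 FPKM in unshaded roots, again overlapping. IAA15 rose at 24 h, while the adjacent IAA19 fell. IAA14 and IAA1 both fell at 24 h. The difference within a pair was not tested, and these 4 pairs were picked after their values were seen.

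ARF transcription factors were called in both directions. Of 23 tested genes, 0 were called at 6 h (0 at 3 h as well), 2 rose and 1 fell at 12 h, 1 rose and 3 fell at 24 h, and 3 rose and 5 fell in the average over time points. These are 13%, 17.4% and 34.8% of the family, against 23.9%, 37.3% and 39.2% of all tested genes. The differences at 24 h ranged from -0.68 to 0.72, with a median of -0.21. The most abundant member, ARF1 (Solyc01g103050.3), averaged 111 FPKM and had a mean difference over time points of 0.17 ± 0.06 (SE, limma adjusted p = 0.0336). This call ended with 10 of the 16 libraries left out in turn (adjusted p up to 0.0827).

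ARF24 (Solyc05g056040.3) was the one that rose at both 12 and 24 h. It had 21.9 and 21.96 FPKM in shaded roots at 12 h, against 16.3 and 12.5 FPKM in unshaded roots, and 23.2 and 23.2 FPKM in shaded roots at 24 h, against 13.3 and 14.1 FPKM in unshaded roots. The difference was 0.58 ± 0.13 at 12 h and 0.72 ± 0.13 at 24 h (SE, limma adjusted p = 0.00877 and 0.00227), the second of which held. The 12 h call ended without shaded replicate 2 or unshaded replicate 2 of that time (adjusted p = 0.0553 and 0.0508). ARF5 (Solyc04g081240.2), whose Arabidopsis namesake MONOPTEROS is needed to form the embryonic root and which was picked after its values were seen, had 3.89 and 4.54 FPKM in shaded roots at 12 h, against 7.51 and 6.64 FPKM in unshaded roots (-0.63 ± 0.11, adjusted p = 0.00306, a call that held). Its groups did not overlap at any of the 4 time points, shaded roots being lower at each, although it was called at 12 h alone among the single times.

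ARF4 (Solyc11g069190.2) and ARF7 (Solyc07g042260.4), which fell at 24 h, were picked for description after their values were seen. In Arabidopsis ARF7 is an activator that acts in lateral root formation. ARF4 had 11.4 and 16.1 FPKM in shaded roots, against 21.4 and 23.2 FPKM in unshaded roots. ARF7 had 4.75 and 5.79 FPKM in shaded roots, against 8.52 and 8.48 FPKM in unshaded roots. The differences were -0.68 ± 0.17 for ARF4 and -0.60 ± 0.19 for ARF7 (SE, limma adjusted p = 0.00972 and 0.0296). The call of ARF4 ended without shaded replicate 1 or unshaded replicate 2 of that time (adjusted p = 0.0956 and 0.066). That of ARF7 ended without shaded replicate 1, unshaded replicate 1 or unshaded replicate 2 (0.18, 0.105 and 0.11).

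SAUR genes were called in both directions. Of 46 tested genes, 1 rose at 6 h, 7 rose and 3 fell at 12 h, 6 rose and 6 fell at 24 h, and 7 rose and 5 fell in the average over time points. The shares called at 12 and 24 h were 21.7% and 26.1%, against 23.9% and 37.3% of all tested genes. In the average over time points the share was 26.1%, against 39.2%. When only the libraries of a time were fitted, 1 rose and 3 fell at 12 h, and 3 rose and 0 fell at 24 h. The counts at 12 and 24 h also changed when single libraries were left out. Their median difference was -0.03, 0.05, -0.02 and 0.16 at 3, 6, 12 and 24 h. SAUR genes are short, and many lie side by side with like sequences, so levels of neighbours could share reads; how such reads were counted is not given in the sources used here.

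The genes described as SAUR20 are a part of the SAUR family that was not among the families set in advance. In the reported fit they were called in one direction, higher in shaded roots. Of 16 such genes 7 were tested, of which 3 rose at 12 h, 3 at 24 h and 4 in the average over time points, and 0 fell (42.9%, 42.9% and 57.1% called, against 23.9%, 37.3% and 39.2% of all tested genes). The 12 h count was 1 without either shaded 12 h replicate, and the 24 h count was 1 without shaded replicate 1, unshaded replicate 1 or unshaded replicate 2 of that time. When only the libraries of a time were fitted, the count was 1 at 12 h and 1 at 24 h. With no filter on low values 4 rose and 1 fell at 24 h, and 5 rose and 1 fell in the average over time points. Solyc01g110920.4 had 38.1 and 36.7 FPKM in shaded roots at 3 h, against 18.1 and 19.04 FPKM in unshaded roots, and 51.5 and 34.4 FPKM in shaded roots at 24 h, against 14.3 and 14.8 FPKM in unshaded roots. At 6 h shaded roots had 44.1 and 36.7 FPKM and unshaded roots 19.9 and 15.0 FPKM; at 12 h shaded roots had 50.0 and 50.9 FPKM and unshaded roots 29.7 and 17.5 FPKM. Every shaded library was above every unshaded one. The difference was 0.97, 1.17, 1.11 and 1.47 (SE 0.24 each) at 3, 6, 12 and 24 h, with limma adjusted p = 0.162, 0.0386, 0.00804 and 0.00167. The average, 1.18 ± 0.12, was the largest rise of any member in the average over time points (adjusted p = 6.55e-05). The 24 h call held; the 6 h call ended with 12 of the 16 libraries left out in turn (adjusted p up to 0.312), and the 12 h call ended without shaded 12 h replicate 2 (adjusted p = 0.053).

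Its neighbour Solyc01g110907.1, also described as SAUR20, had 37.9 and 32.9 FPKM in shaded roots at 12 h, against 13.0 and 15.7 FPKM in unshaded roots, and averaged a difference of 1.01 ± 0.13 over time points (SE, limma adjusted p = 0.000306). The 12 h call (adjusted p = 0.00785) ended without shaded 12 h replicate 1 (0.0531). The 24 h call (adjusted p = 0.0161) ended without shaded replicate 1, unshaded replicate 1 or unshaded replicate 2 of that time (0.154, 0.059 and 0.0804). Solyc01g111000.4 and Solyc01g110730.4, low genes picked after their values were seen, had average differences of 0.62 ± 0.14 and 0.52 ± 0.13 (adjusted p = 0.00622 and 0.0106). The 12 h call of Solyc01g111000.4 (adjusted p = 0.0295) ended without any one of the 4 libraries of that time (0.0759 to 0.146), and its 24 h call (0.0158) without shaded replicate 1, unshaded replicate 1 or unshaded replicate 2 (0.154, 0.0769 and 0.0607). All 4 averages held.

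Other SAUR genes rose late. Small auxin up-regulated RNA61 (Solyc06g072650.1), the most abundant tested SAUR gene at a mean of 265 FPKM, had 154 and 177 FPKM in shaded roots at 3 h, against 225 and 290 FPKM in unshaded roots. At 24 h it had 530 and 347 FPKM in shaded roots, against 187 and 204 FPKM in unshaded roots. Shaded roots were thus lower at 3 h and higher at 24 h, without overlap at either. The difference was -0.63 ± 0.22 at 3 h and 1.13 ± 0.22 at 24 h (SE, limma adjusted p = 0.343 and 0.00341), and it differed between time points (interaction adjusted p = 0.0359). RNA78 (Solyc10g054720.1) had 11.3 and 6.29 FPKM in shaded roots at 24 h, against 2.30 and 1.79 FPKM in unshaded roots (1.64 ± 0.45, adjusted p = 0.0156). The 24 h call of RNA61 held, and that of RNA78 ended without shaded replicate 1, unshaded replicate 1 or unshaded replicate 2 of that time (adjusted p = 0.13, 0.0503 and 0.0866).

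The falling SAUR genes at 12 h included RNA4 (Solyc01g110570.3), which lies in the same run of identifiers as the SAUR20 genes. It had 1.18 and 1.53 FPKM in shaded roots at 12 h, against 9.32 and 7.48 FPKM in unshaded roots, a difference of -1.996 ± 0.32 (SE, limma adjusted p = 0.00236) that was the largest fall of any member at that time and held. SAUR32 (Solyc08g079150.1; its Arabidopsis namesake acts in the apical hook) had 2.27 and 2.18 FPKM in shaded roots at 12 h, against 6.04 and 9.28 FPKM in unshaded roots (-1.40 ± 0.30, adjusted p = 0.00841). Solyc12g009290.1 had 3.73 and 4.41 FPKM in shaded roots at 12 h, against 14.0 and 10.6 FPKM in unshaded roots (-1.38 ± 0.32, adjusted p = 0.0125). The 12 h call of SAUR32 ended without shaded replicate 2 or unshaded replicate 2 of that time (adjusted p = 0.0547 and 0.0563). That of Solyc12g009290.1 ended without shaded replicate 1, shaded replicate 2 or unshaded replicate 1 (adjusted p = 0.0716, 0.0545 and 0.0653). The averages over time points of all 3 held (-0.88, -0.93 and -0.79 for RNA4, SAUR32 and Solyc12g009290.1).

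At 24 h, RNA64 (Solyc07g042470.3) had 1.71 and 5.33 FPKM in shaded roots, against 13.0 and 11.7 FPKM in unshaded roots (-1.69 ± 0.31, SE, limma adjusted p = 0.00291). At 3 h it had 22.2 and 15.9 FPKM in shaded roots, against 17.2 and 15.4 FPKM in unshaded roots, which overlap, and its shade effect differed between time points (interaction adjusted p = 0.0423). RNA63 (Solyc07g014620.1) had 10.3 and 17.5 FPKM in shaded roots at 24 h, against 29.4 and 26.3 FPKM in unshaded roots (-0.99 ± 0.20, adjusted p = 0.00411), and both 24 h calls held. Solyc01g110825.1 had 1.34 and 4.49 FPKM in shaded roots at 24 h, against 10.5 and 6.11 FPKM in unshaded roots (-1.33 ± 0.35, adjusted p = 0.0132), a call that ended without shaded replicate 1 or unshaded replicate 1 of that time (0.116 and 0.105). RNA55 (Solyc05g046320.1) had 7.78 and 15.8 FPKM in shaded roots at 24 h, against 21.6 and 22.9 FPKM in unshaded roots (-0.94 ± 0.33, adjusted p = 0.0437); this call ended with 9 of the 16 libraries left out in turn (adjusted p up to 0.35).

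GH3 genes, which encode auxin-conjugating and related enzymes, were mostly low or not detected. Of 30 genes, 12 were at 0 in all libraries and 6 were tested; 3 of these rose at 24 h (50%, against 37.3% of all tested genes) and 0 were called at 3, 6 or 12 h. Solyc05g050280.3 had 5.05 and 7.01 FPKM in shaded roots at 3 h, against 9.51 and 7.33 FPKM in unshaded roots. At 24 h it had 9.94 and 13.3 FPKM in shaded roots, against 5.06 and 4.18 FPKM in unshaded roots. The difference was -0.43 ± 0.20 at 3 h and 1.16 ± 0.20 at 24 h (SE, limma adjusted p = 0.535 and 0.00227), the 24 h call held, and the effect differed between time points (interaction adjusted p = 0.038).

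Solyc07g053030.4, picked after its values were seen, had 28.5 and 22.8 FPKM in shaded roots at 24 h, against 14.5 and 12.5 FPKM in unshaded roots, and 13.9 and 18.1 FPKM in shaded roots at 3 h, against 22.8 and 23.7 FPKM in unshaded roots. Its difference was 0.87 ± 0.19 at 24 h (SE, limma adjusted p = 0.00602, interaction adjusted p = 0.0428). Solyc10g011660.3, the most abundant tested GH3 gene at a mean of 48.0 FPKM, had 67.3 and 60.4 FPKM in shaded roots at 24 h, against 39.3 and 44.2 FPKM in unshaded roots (0.60 ± 0.19, adjusted p = 0.0284). The call of Solyc07g053030.4 ended without shaded replicate 1 or unshaded replicate 2 of that time (adjusted p = 0.0599 and 0.0515), and that of Solyc10g011660.3 without shaded replicate 1, unshaded replicate 1 or unshaded replicate 2 (0.154, 0.14 and 0.0698). The other 3 tested GH3 genes differed by -0.01 to 0.14 at 24 h.

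Genes of auxin transport were called in both directions. Of 11 tested efflux carriers, 0 rose and 2 fell at 12 h (18.2%, against 23.9% of all tested genes). At 24 h 1 rose and 2 fell (27.3%, against 37.3%). In the average over time points 1 rose and 3 fell (36.4%, against 39.2%). The ABC transporter B family, which in Arabidopsis includes auxin exporters, lies outside the description rule. Of 9 tested genes with that description, 2 rose and 0 fell at 24 h (22.2%, against 37.3% of all tested genes). In the average 3 rose and 0 fell (33.3%, against 39.2%). The efflux carrier component Solyc01g068410.4 had 1.88 and 0.794 FPKM in shaded roots at 12 h, against 8.27 and 5.37 FPKM in unshaded roots, and 0.730 and 3.73 FPKM in shaded roots at 24 h, against 5.44 and 8.62 FPKM in unshaded roots. At 3 h it had 4.61 and 2.56 FPKM in shaded roots, against 6.92 and 8.24 FPKM in unshaded roots; at 6 h it had 2.93 and 2.04 FPKM in shaded roots, against 5.72 and 16.5 FPKM in unshaded roots. Its groups did not overlap at any time, shaded roots being lower. The average difference was -1.45 ± 0.26 (SE, limma adjusted p = 0.00183), the largest average fall of any member, and it held. The 12 h call (adjusted p = 0.0344) ended without any one of the 4 libraries of that time (0.0631 to 0.19), and the 24 h call (0.0491) with 13 of the 16 libraries left out in turn (up to 0.373).

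Auxin Efflux Facilitator 10 (Solyc04g056620.2) varied between replicates, with 0.272 and 10.8 FPKM in shaded roots at 24 h, against 12.2 and 20.1 FPKM in unshaded roots. Its average difference was -1.13 ± 0.39 (SE, limma adjusted p = 0.0401), a call that ended with 13 of the 16 libraries left out in turn (adjusted p up to 0.0882). The efflux carrier family gene Solyc10g074790.2, picked after its values were seen, had 11.9 and 11.8 FPKM in shaded roots at 12 h, against 18.6 and 15.0 FPKM in unshaded roots, and an average difference of -0.45 ± 0.07 (adjusted p = 0.00107) that held. Its 12 h call (adjusted p = 0.0418) ended with 9 of the 16 libraries left out in turn (up to 0.21), and its 24 h call (0.0123) without shaded replicate 1 or unshaded replicate 1 of that time (0.118 and 0.0776).

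The efflux carrier Solyc03g031990.4, the most abundant of the 11, rose at 24 h. It had 58.9 and 54.9 FPKM in shaded roots, against 30.9 and 34.3 FPKM in unshaded roots (0.79 ± 0.14, SE, limma adjusted p = 0.00223), a call that held. At 3 h it had 46.0 and 42.3 FPKM in shaded roots, against 49.0 and 51.1 FPKM in unshaded roots. The effect differed between time points (interaction adjusted p = 0.0403). This gene was the 1 efflux carrier called higher in the average over time points (0.19). That call ended with no filter on low values (limma adjusted p = 0.0517) and with a replicate block within time points (0.064). It also ended with most of the libraries left out in turn.

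Both tested influx carriers, described like the AUX1/LAX family that brings auxin into cells, fell at 24 h. They were picked after their values were seen. At that time 21.4% of all tested genes were called lower, and 20.9% were called lower in the average over time points. Auxin transporter-like protein.1 (Solyc10g076790.2) had 7.44 and 7.25 FPKM in shaded roots at 24 h, against 12.8 and 13.4 FPKM in unshaded roots (-0.76 ± 0.22, SE, limma adjusted p = 0.0196). Auxin transporter-like protein 3 (Solyc11g013310.2) had 13.2 and 16.5 FPKM in shaded roots at 24 h, against 23.0 and 21.8 FPKM in unshaded roots (-0.57 ± 0.15, adjusted p = 0.0154). The groups of each gene did not overlap. The 24 h calls ended without single libraries of that time, with adjusted p = 0.0602 to 0.0947 for the first gene (each of the 4) and 0.0578 to 0.133 for the second (shaded replicate 1 or either unshaded replicate). The averages over time points, -0.42 ± 0.11 and -0.32 ± 0.08 (adjusted p = 0.0111 and 0.0081), held for both.

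**Figure D4:**
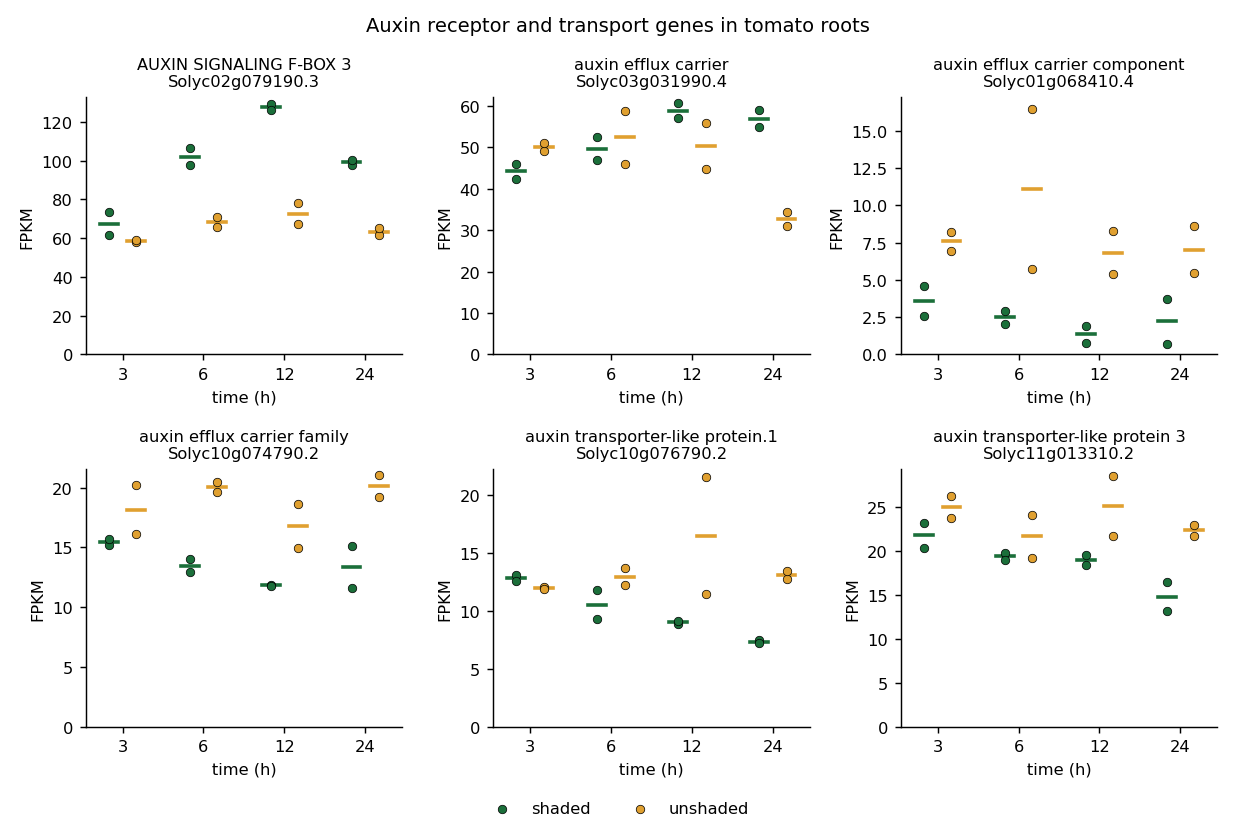
FPKM (y axis) of the auxin F-box gene, 3 efflux carriers and 2 influx carriers in each library at 3, 6, 12 and 24 h (x axis), shaded left and unshaded right at each time; points are libraries and bars the mean of 2. AUXIN SIGNALING F-BOX 3 is higher in shaded roots at every time and the efflux carrier Solyc03g031990.4 at 24 h (58.9 and 54.9 FPKM in shaded against 30.9 and 34.3 FPKM in unshaded roots), while the influx carriers are lower in shaded roots at 12 and 24 h.

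The 4 auxin-repressed or dormancy/auxin associated genes all rose in the average over time points. Their differences lay above 0 at every time, with medians of 0.36, 1.09, 1.22 and 0.997 at 3, 6, 12 and 24 h. At these times 0, 1, 4 and 3 of the 4 were called, against 0.186%, 1.64%, 23.9% and 37.3% of all tested genes. In the average, 18.2% of all tested genes were called higher. The 12 h count was 2 without shaded 12 h replicate 2 or unshaded 12 h replicate 2 and 1 when only the 12 h libraries were fitted, and the 24 h count was 1 without shaded replicate 1, unshaded replicate 1 or unshaded replicate 2 of that time. The most abundant auxin-related gene of all, the auxin-repressed protein gene Solyc02g077880.3, averaged 1134 FPKM. It had 973 and 1002 FPKM in shaded roots at 3 h, against 716 and 701 FPKM in unshaded roots, and 1455 and 1350 FPKM in shaded roots at 6 h, against 795 and 708 FPKM in unshaded roots. At 12 h it had 1988 and 1896 FPKM in shaded roots, against 1208 and 733 FPKM in unshaded roots; at 24 h it had 1864 and 1450 FPKM in shaded roots, against 655 and 654 FPKM in unshaded roots. The groups did not overlap at any time. The difference was 0.48, 0.90, 1.04 and 1.33 (SE 0.20 each), with limma adjusted p = 0.476, 0.0588, 0.00554 and 0.00146 at 3, 6, 12 and 24 h, and the calls at 12 and 24 h held.

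The other 3 genes spanned low to high levels. Solyc03g006360.3 had 3.73 and 4.49 FPKM in shaded roots at 6 h, against 1.58 and 0.711 FPKM in unshaded roots (1.28 ± 0.26, SE, limma adjusted p = 0.0389), and 5.35 and 9.30 FPKM in shaded roots at 12 h, against 2.25 and 1.93 FPKM in unshaded roots (1.39 ± 0.26, adjusted p = 0.00438). Its 6 h call ended with 9 of the 16 libraries left out in turn (adjusted p up to 0.214), its 12 h call held, and its 24 h call (adjusted p = 0.0121) ended without shaded replicate 1, unshaded replicate 1 or unshaded replicate 2 of that time (0.104, 0.059 and 0.0555). Solyc06g063060.3 peaked at 12 h, with 18.4 and 25.6 FPKM in shaded roots against 5.83 and 4.04 FPKM in unshaded roots (1.95 ± 0.44, adjusted p = 0.0109), the largest rise of any member at that time. That call ended without shaded replicate 2 or unshaded replicate 2 of that time (0.0812 and 0.0604). Solyc01g099840.3, picked after its values were seen, had 509 and 389 FPKM in shaded roots at 24 h, against 218 and 234 FPKM in unshaded roots (0.98 ± 0.26, adjusted p = 0.0138), a call that ended without shaded replicate 1, unshaded replicate 1 or unshaded replicate 2 (0.112, 0.0705 and 0.0557). Its 12 h call (adjusted p = 0.048) ended with 11 of the 16 libraries left out in turn (up to 0.292). The averages over time points of all 4 held.

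**Figure D5:**
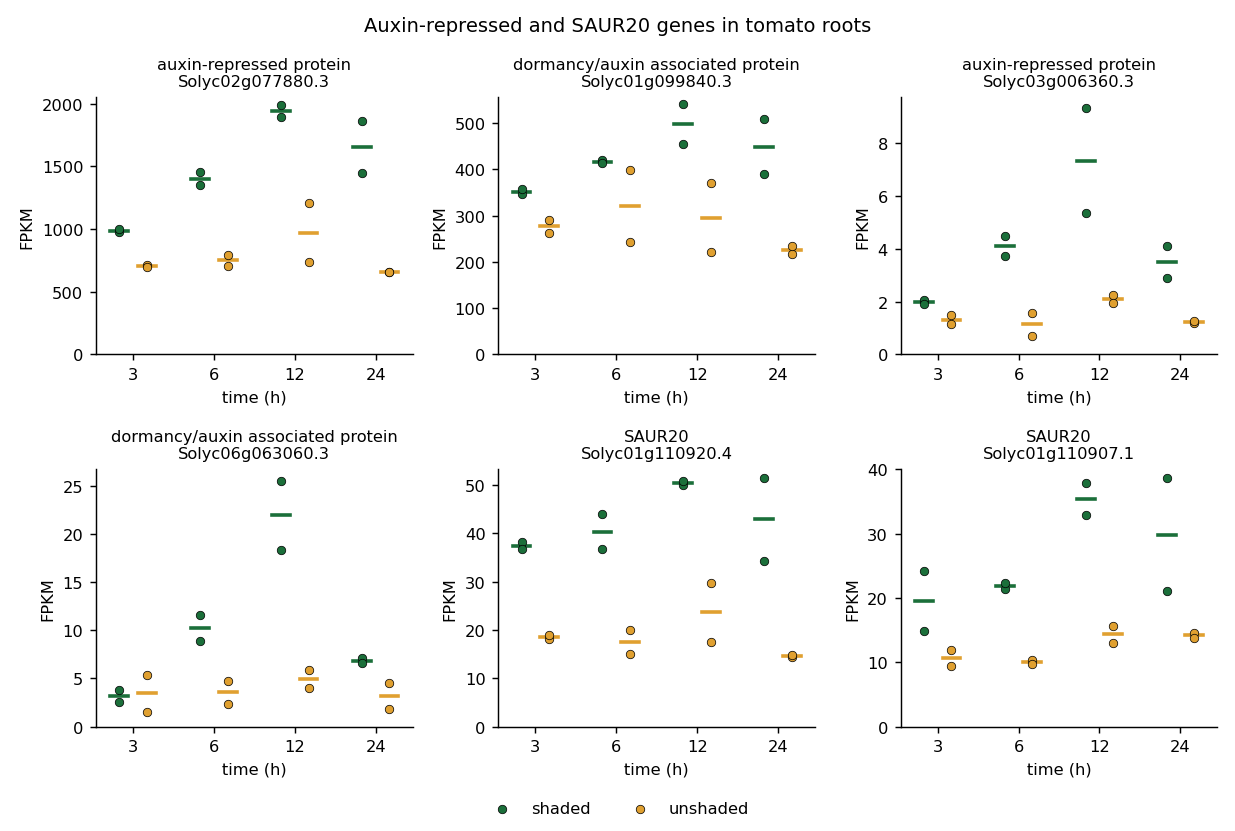
FPKM (y axis) of the 4 auxin-repressed or dormancy/auxin associated genes and 2 SAUR20 genes in each library at 3, 6, 12 and 24 h (x axis), shaded left and unshaded right at each time; points are libraries and bars the mean of 2. At 12 h every shaded library is above every unshaded one in all 6 genes, for Solyc02g077880.3 with 1988 and 1896 FPKM in shaded against 1208 and 733 FPKM in unshaded roots.

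Genes described as auxin canalization proteins, which share a DUF828 domain, included 5 tested genes, of which 3 fell and 0 rose at 12 h, at 24 h and in the average over time points (60%, against 23.9%, 37.3% and 39.2% of all tested genes). The single-time counts were fragile: the 12 h count was 0 without shaded 12 h replicate 2, and the 24 h count was 1 with any shaded library or either unshaded 24 h library left out, under median-of-ratios scaling and with no filter on low values. When only the libraries of a time were fitted the counts were 0 at 12 h and 1 at 24 h. Solyc09g065590.3 had 3.39 and 3.13 FPKM in shaded roots at 12 h, against 7.19 and 5.22 FPKM in unshaded roots, and 3.74 and 3.78 FPKM in shaded roots at 24 h, against 7.16 and 7.75 FPKM in unshaded roots. The difference was -0.75 ± 0.15 at 12 h and -0.83 ± 0.15 at 24 h (SE, limma adjusted p = 0.00699 and 0.00285). The 24 h call held, and the 12 h call ended without shaded 12 h replicate 2 (adjusted p = 0.0543). Solyc09g082580.4 had an average difference of -0.48 ± 0.09 (adjusted p = 0.00252) and Solyc08g078500.3, picked after its values were seen, one of -0.29 ± 0.07 (adjusted p = 0.00675), and both averages held. The calls of Solyc09g082580.4 at 12 h (adjusted p = 0.043) and 24 h (0.0398) ended with 11 and 10 of the 16 libraries left out in turn (up to 0.226 and 0.227). That of Solyc08g078500.3 at 12 h (0.00795) ended without shaded 12 h replicate 2 (0.0591), and that at 24 h (0.0432) with 12 of the 16 left out in turn (up to 0.141). Under median-of-ratios scaling their 24 h values were 0.0555 and 0.0608. The most abundant member, Solyc08g066860.2, overlapped between the lights at 24 h, with 37.4 and 28.1 FPKM in shaded roots against 24.6 and 30.9 FPKM in unshaded roots.

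Among the other members, the auxin-regulated gene involved in organ size (Solyc12g096570.1; ARGOS, its Arabidopsis counterpart by that description, promotes organ growth) had 42.9 and 41.6 FPKM in shaded roots at 24 h, against 20.9 and 16.6 FPKM in unshaded roots (1.14 ± 0.34, SE, limma adjusted p = 0.0241). Its 12 h difference was 1.27 ± 0.34 (adjusted p = 0.0229), and each of these calls ended without any one of the 4 libraries of its time (adjusted p = 0.0518 to 0.0984 at 12 h and 0.0548 to 0.134 at 24 h), while the average of 0.84 ± 0.17 (adjusted p = 0.00335) held. Solyc07g045060.1, an auxin responsive protein, had 1.98 and 3.60 FPKM in shaded roots at 12 h, against 11.4 and 10.97 FPKM in unshaded roots (-1.72 ± 0.50, adjusted p = 0.0298). That call ended without any one of the 4 libraries of that time (adjusted p = 0.0683 to 0.163). Protein AUXIN RESPONSE 4 (Solyc01g099120.4; AXR4 of Arabidopsis is needed to place the influx carrier AUX1 at the plasma membrane), picked after its values were seen, had 5.77 and 8.78 FPKM in shaded roots at 24 h, against 12.7 and 13.4 FPKM in unshaded roots (-0.79 ± 0.17, adjusted p = 0.00512, a call that held). The auxin-responsive protein gene Solyc03g120500.4, the most abundant of the group, was called in the average over time points (0.43 ± 0.10, adjusted p = 0.00659, a call that held).

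No change with time in unshaded roots was called for these genes. In the limma test over the 4 unshaded groups, 0 of 127 members were called, against 0.0637% of all tested genes, and 22 members had an unadjusted p under 0.05. The shade effect differed between time points for 9 members (7.09%), against 6.79% of all tested genes. Between 24 and 3 h, 8 members gained and 6 lost in shade effect (11% called), against 19% of all tested genes, 6.83% gaining and 12.1% losing. These 2 counts rested on single libraries. Without single libraries the first ranged from 0 to 19 and the second from 1 (without shaded 3 h replicate 1) to 22 (without shaded 24 h replicate 2).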

How the data were processed

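Roots of tomato M82 were sequenced, 2 libraries per light and time, and RNA was extracted with a Promega ReliaPrep kit, per the labels' protocols. The authors deposited FPKM per gene with descriptions. Cufflinks 2.1.1 is named in the submitters' processing notes; the tomato build and the treatment of shared reads are not given in the sources used here. All columns matched sample titles. Steps in low values gave relative depths of 0.668 to 1.48; absolute depth is unknown.

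Genes averaging at least 1 FPKM over 16 libraries were fitted as log2(FPKM + 1) with limma 3.58.1 in R 4.3.3, with 8 group means, a variance trend and Benjamini-Hochberg adjustment over all 20413 genes; fold changes of low genes are understated on this scale. The fit was tested on simulated data. Members, families and lists were chosen with earlier results of these data known; the family wordings "dormancy/auxin associated" and "auxin canalization" were added after the table was seen. Named genes were, per family with at least 3 tested members, the 2 called genes with the largest average effect and the most abundant gene; the 6 largest non-overlapping called rises and falls at 12 h and 24 h; all called at 3 h or 6 h; and the 5 with the smallest interaction p. Genes described outside the rule as risers or fallers are marked, and some members are not reported here. Alternatives were a pseudocount of 0.1, no filter, median-of-ratios or equal-sum scaling, fits of only the groups compared, replicate blocks and leaving out each library.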

Additional observations from a re-analysis of the deposited data

Results flagged for a closer look

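Every group held 2 libraries, so no search for an outlying library was made. The shade effect of 9 members differed between the 4 time points in limma's interaction test of light and time, by its adjusted p. They were IAA26 (Solyc03g121060.4, adjusted p = 0.0182), IAA1 (Solyc09g083280.3, 0.0231), SAUR RNA61 (Solyc06g072650.1, 0.0359), the GH3 gene Solyc05g050280.3 (0.038), IAA14 (Solyc09g083290.3, 0.0401), SAUR RNA38 (Solyc03g097510.1, 0.0401), the efflux carrier Solyc03g031990.4 (0.0403), SAUR RNA64 (Solyc07g042470.3, 0.0423) and the GH3 gene Solyc07g053030.4 (0.0428). RNA38 had 28.1 and 29.2 FPKM in shaded roots at 3 h, against 60.6 and 62.9 FPKM in unshaded roots, and 139 and 74.8 FPKM in shaded roots at 24 h, against 56.1 and 50.0 FPKM in unshaded roots. The call of IAA26 stayed in 13 and that of IAA1 in 9 of the 16 fits that left out 1 library; the other 7 calls stayed in 5 to 7 of the 16.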

How the results depend on the processing

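Of 52 counts of members under settings other than leaving out a library, 45 stayed within 1.5 times the reported count. The 7 others were 0, 14 and 21 members at 6, 12 and 24 h when only the 4 libraries compared were fitted (16 higher and 5 lower at 24 h, 76.2% higher against 48.8%), 3 members for the interaction with no filter on low values, 4 for it with a replicate block across time points, and 2 at 6 h and 0 for the interaction with a replicate block within time points. Deviations of same-numbered shaded and unshaded libraries from their group means correlated across genes with r of -0.004 to 0.094. With 2 libraries per group, this cannot tell whether same-numbered libraries were grown or prepared together. Leaving out 1 library gave 0 to 1 member at 3 h, 0 to 8 at 6 h, 12 to 33 at 12 h, 19 to 44 at 24 h, 39 to 53 in the average, 1 to 22 for the 24 h minus 3 h effect, 0 to 19 for the interaction and 0 to 5 for time in unshaded roots. The 6 h count was 0, 1 and 2 without shaded replicate 1, shaded replicate 2 and unshaded replicate 1; the 12 h count 16, 12 and 21 without shaded replicate 1, shaded replicate 2 and unshaded replicate 1; and the 24 h count 19, 19 and 20 without shaded replicate 1, unshaded replicate 1 and unshaded replicate 2. The cause was not tested. Of the calls of named genes, 519 were kept and 66 lost over the other settings, and 1190 kept and 234 lost over the left-out libraries. No direction changed. These counts pool single times, the average and the 24 h minus 3 h effect. Leaving out a library of another time cannot change a single-time difference, so its direction was fixed in those fits. Among all members, 0 of 6 calls at 6 h, 9 of 32 at 12 h and 16 of 41 at 24 h held. Absolute depth is unknown, so no counting error of low genes can be given.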

Other observations

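Genes of auxin synthesis, control of transport and lateral organ boundaries, were left out by the description rule. Over 8 lists of such genes, 71 of 132 were tested; limma called 0 at 3 h and 0 at 6 h, 4 higher and 6 lower at 12 h (14.1%, against 23.9% of all tested genes), and 11 higher and 11 lower at 24 h (31%, against 37.3%). Both tested tryptophan aminotransferase genes, of the enzyme family that starts auxin synthesis from tryptophan, fell at 24 h, when 21.4% of all tested genes were called lower. The log2 difference was -0.93 for Solyc03g112460.3 and -1.04 for Solyc06g071640.3 (limma adjusted p = 0.0101 and 0.006). Of 14 tested flavin monooxygenase genes, the family that holds the YUCCA enzymes of the next step, 3 fell at 12 h, 3 fell at 24 h and 0 rose (21.4% at each time, against 23.9% and 37.3% of all tested genes). Protein kinase PINOID 2 (Solyc12g006690.2), whose Arabidopsis relative PINOID phosphorylates PIN carriers, fell at 12 and 24 h (-0.79 and -1.39, limma adjusted p = 0.0329 and 0.002). Whether the calls of genes in these 8 lists held with each library left out is not reported here. Among 10 tested TOPLESS genes, encoding co-repressors that Aux/IAA proteins recruit, Solyc03g117410.2 rose at 24 h (1.06) and Solyc08g076030.3 fell (-0.67). This is 20% called, under the 37.3% of all tested genes. Of 25 tested LOB domain genes, a family that includes targets of ARF7 in Arabidopsis lateral roots, 7 rose and 3 fell at 24 h (40%, against 37.3% of all tested genes) and 8% were called at 12 h (against 23.9%), with LOB domain-containing protein 6 (Solyc11g008830.2) at 2.04 and Solyc11g045530.3 at -1.25.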
